A study of Mus musculus with 6 samples.

Results

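In an immortalised line of mouse atrioventricular cushion mesenchymal cells, 1628 regions of open chromatin lay more than 10 kb from the body of any protein-coding gene and held an ATAC-seq peak in each of 5 libraries. They were chosen by merging autosomal peaks (mm10) of 5 lists that overlapped by at least 1 bp and keeping merged regions with a peak in every list. The 1628 far shared regions, called members here, were 13.4% of the 12139 regions that all 5 lists shared, and were drawn from 48279 merged regions in all. Since presence in all 5 lists and distance to a gene chose the members, both are given here as descriptions. ATAC-seq uses a transposase to cut and tag accessible DNA, and a peak marks a place with many cuts. In bulk cells, a site open in few cells and a site weakly open in all cells cannot be told apart.

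The cells carry the H- 2Kb-tsA58 transgene, a temperature-sensitive viral T antigen under a class I histocompatibility promoter, in both groups, and the labels name a single line at passage 6. The normal-glucose libraries NG1, NG2 and NG3 came from cells in 5.5 mM glucose and the high-glucose libraries HG1, HG2 and HG3 from cells in 25 mM glucose for 48 h, with 54000 cells a library. The 5 lists used held 22156 to 40350 peaks, the longest being NG3, while NG2 held 66 and took no part in choosing the members. The labels do not say whether replicates were separate cultures, so p-values measure the spread between these libraries only, which may be technical. Depth in reads is unknown. Genes open in all 5 libraries, inside the gene or within 1 kb of it, included 23 of 39 mesenchymal and fibroblast markers, among them Vim, Acta2, Tagln, Fn1 and Cdh11, while Col1a1, Col1a2, Pdgfra and Pdgfrb were not open in all 5. The same measure gave 3 of 24 endothelial, 4 of 24 cardiomyocyte, 2 of 23 blood cell and 5 of 20 epithelial and mesothelial markers, and 43.8% of all protein-coding genes. Pecam1, Cdh5, Tek, Myh6, Tnnt2 and Ptprc were not open in all 5. Those open in all 5 were the endothelial Flt1, Vwf and Eng, the cardiomyocyte Nppb, Atp2a2, Myom1 and Ldb3, and the blood cell Spi1 and Itga2b. So were the epithelial and mesothelial Cdh1, Upk1b, Upk3b, Lrrn4 and Aldh1a1.

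Open regions far from genes are often enhancers, short stretches where transcription factors bind and act on a promoter over a distance by looping. Others are promoters of long non-coding RNAs or microRNA genes, insulators, or repeated sequence that accumulates reads. In the developing heart, cushion mesenchyme arises when endocardial cells undergo an epithelial-to-mesenchymal transition under TGF-beta, BMP and Notch signals, and the genes involved lie in wide intergenic stretches. Which gene an intergenic region acts on cannot be read from its position.

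Some members lay on the start of a long non-coding RNA (lncRNA), and RefSeq gives the DNA sequence around such starts, though not that of the whole member. Of the 1628 members, 87 (5.34%, 95% Wilson interval 4.35 to 6.55) overlapped a RefSeq lncRNA promoter window, which runs from 250 bases before to 50 bases after an annotated start. The windows of 6 such RNAs are printed 5′ to 3′ on the strand of the RNA (RefSeq, GRCm38.p6), with matches to known motifs on either strand in capitals. The motifs were GGGCGG for SP and KLF factors, TGANTCA for AP-1, AGATAA for factors such as Gata6, GGAATG for TEAD factors, and CAGCTG for the E-box of helix-loop-helix factors. D130051D11Rik and 1700096K18Rik are shown because their members were among the 10 highest ranked, and Snhg5, Dancr, Chaserr and Dubr because they are lncRNAs with established names.
D130051D11Rik: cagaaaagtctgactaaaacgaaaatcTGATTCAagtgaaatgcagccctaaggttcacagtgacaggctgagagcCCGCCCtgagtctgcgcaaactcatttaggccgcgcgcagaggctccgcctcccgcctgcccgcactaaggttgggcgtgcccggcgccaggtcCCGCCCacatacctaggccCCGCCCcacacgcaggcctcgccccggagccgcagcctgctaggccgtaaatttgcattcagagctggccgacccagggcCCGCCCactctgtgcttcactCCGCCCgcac
1700096K18Rik: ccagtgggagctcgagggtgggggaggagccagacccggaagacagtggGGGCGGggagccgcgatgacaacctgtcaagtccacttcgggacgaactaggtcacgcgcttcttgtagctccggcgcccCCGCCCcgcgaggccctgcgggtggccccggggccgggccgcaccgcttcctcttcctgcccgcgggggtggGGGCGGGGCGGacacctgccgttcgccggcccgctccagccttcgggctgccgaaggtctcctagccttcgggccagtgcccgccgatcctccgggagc
Snhg5: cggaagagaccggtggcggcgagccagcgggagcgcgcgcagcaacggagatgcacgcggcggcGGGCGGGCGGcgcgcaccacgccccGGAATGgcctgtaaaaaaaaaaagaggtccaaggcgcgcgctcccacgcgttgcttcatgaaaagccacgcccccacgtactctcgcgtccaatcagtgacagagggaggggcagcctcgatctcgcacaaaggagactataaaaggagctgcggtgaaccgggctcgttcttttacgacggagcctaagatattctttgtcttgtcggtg
Dancr: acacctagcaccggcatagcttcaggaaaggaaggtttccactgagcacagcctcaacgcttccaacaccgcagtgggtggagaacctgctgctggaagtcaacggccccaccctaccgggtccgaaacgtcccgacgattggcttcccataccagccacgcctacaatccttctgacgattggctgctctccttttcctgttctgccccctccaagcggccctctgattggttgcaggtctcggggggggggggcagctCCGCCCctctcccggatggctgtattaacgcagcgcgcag
Chaserr: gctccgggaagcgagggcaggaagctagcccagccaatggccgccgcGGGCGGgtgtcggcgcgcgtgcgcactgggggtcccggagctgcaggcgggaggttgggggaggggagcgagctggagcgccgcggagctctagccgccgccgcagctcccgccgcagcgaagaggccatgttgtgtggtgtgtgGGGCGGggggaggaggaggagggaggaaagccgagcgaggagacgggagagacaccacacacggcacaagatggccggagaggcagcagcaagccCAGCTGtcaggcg
Dubr: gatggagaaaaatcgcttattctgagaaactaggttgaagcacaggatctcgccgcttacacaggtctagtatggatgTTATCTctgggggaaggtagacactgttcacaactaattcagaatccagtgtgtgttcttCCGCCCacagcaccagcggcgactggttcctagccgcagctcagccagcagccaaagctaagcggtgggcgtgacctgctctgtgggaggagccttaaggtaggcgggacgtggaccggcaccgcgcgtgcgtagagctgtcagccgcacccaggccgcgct

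The 6 windows lie at chr15:85634346-85634645 (D130051D11Rik, plus strand), chr5:25529768-25530067 (1700096K18Rik, plus), chr9:88522848-88523147 (Snhg5, minus), chr5:74092810-74093109 (Dancr, plus), chr7:73558346-73558645 (Chaserr, minus) and chr16:50732724-50733023 (Dubr, minus). Of the 300 bases printed, 249, 276, 206, 282, 300 and 213 lay inside the member, in the same order, and the rest beside it. All 6 held GGGCGG on at least 1 strand and inside the member, 5 times in D130051D11Rik and once in Dancr and Dubr. A GGAATG match in Snhg5 and a CAGCTG match in Chaserr also lay inside their members. The TGANTCA match of D130051D11Rik (bases 28 to 34 of the window) and the AGATAA match of Dubr (bases 79 to 84, on the opposite strand) lay outside them. Their GC content ran from 57.3% in Dubr to 74.0% in 1700096K18Rik. A match describes the letters and not evidence that a factor was bound.

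Over all members at a lncRNA start, 103 windows of 92 lncRNA genes were covered. Their median GC content was 57.3%, against 48.3% over all 11311 autosomal lncRNA windows, and their median number of CpG dinucleotides was 11 against 4. GGGCGG stood in 48.5% of them, against 16.3% of all lncRNA windows and 36.0% of all 31396 promoter windows of the same length. All 20084 protein-coding windows, with a similar median GC content of 57.0%, held it in 47.0%, close to the share under members. TGANTCA stood in 12.6%, against 9.25% of lncRNA windows and 7.84% of all windows. AGATAA stood in 4.85%, against 14.0% of lncRNA windows and 11.2% of all windows, and the cAMP response element TGACGTCA in 1.94% against 0.990% and 1.83%. All protein-coding windows held TGANTCA in 7.06%, AGATAA in 9.57% and TGACGTCA in 2.30%. Windows under shared regions of protein-coding genes held GGGCGG more often still, in 76.1% of 6678 windows, at a median GC content of 64.0%. The part of base composition in these shares was not tested.

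The member at D130051D11Rik, chr15:85634397-85634870, lay 52.6 kb from Wnt7b, which encodes a Wnt ligand, in the gap before Ppara, which encodes a nuclear receptor of fatty acid metabolism. Strength was read as a percentile: the authors' −log10 p of the region's strongest peak was ranked within each list, and 100 stands for the strongest peak of that list. In the order NG1, NG3, HG1, HG2 and HG3, which is kept in what follows, its percentiles were 99.68, 99.98, 99.95, 99.95 and 99.87. The member at 1700096K18Rik stood at 98.8, 98.1, 99.0, 98.7 and 99.0. Both were near the top of all 5 lists. At Snhg5, host of small nucleolar RNAs, the percentiles were 94.5, 97.5, 87.4, 94.99 and 94.6. At Dancr, a lncRNA known for restraining differentiation, they were 92.4, 95.4, 88.0, 81.8 and 92.3. At Chaserr, a lncRNA beside Chd2 that limits the expression of that chromatin remodeller, they were 86.1, 97.9, 86.4, 89.0 and 72.6. At Dubr they were 48.7, 90.2, 52.2, 68.2 and 74.97, a spread far wider than at the other 5, with the longest list the highest. Members at a lncRNA start had a median percentile above that of the other 1541 members in 5 of 5 libraries, by 10.1 percentage points on average (SD 3.14, range 5.08 to 13.3, p = 0.0625, exact sign-flip permutation test, two-sided, the smallest p that 5 libraries allow).

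Non-coding genes overlapped 462 members (28.4%, 26.2 to 30.6), most of them lncRNAs, which covered 433 members. Among far regions found in 2 to 4 lists lncRNAs covered 23.4% (22.2 to 24.6), and among those found in 1 list 19.95% (18.9 to 21.0). lncRNA promoter windows covered 2.28% and 1.38% of those regions, against 5.34% of members, and tRNA genes 0.313% and 0.138% against 0.614% (10 members). Members inside lncRNAs with known roles included 3 in Pvt1, the lncRNA beside Myc, at the 72.0, 60.8, 71.6, 26.3 and 39.8 percentile for the one nearest Myc and at 91.5, 96.5, 92.8, 94.1 and 75.9 for the next. They also included a member in Mir100hg, host of several microRNAs, 1 in Lncpint, a p53-induced RNA, 1 in Trp53cor1, beside the cell cycle inhibitor gene Cdkn1a, and 2 in Dleu2. The intervals are 95% Wilson intervals over regions and measure counting error only.

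Of 919 autosomal microRNA hairpins in the RefSeq sequence table, 21 lay within 5 kb of a member, beside 14 members in all. The matching share of other far regions is not given here, so this is a count only. A further member, chr9:110281243-110281379, overlapped Mir6236, annotated as a microRNA gene but with no hairpin in that table, and the lncRNA Gm39429. It stood at the 82.7, 91.7, 87.4, 87.7 and 93.8 percentile. Whether repeated sequence accumulates reads there was not checked. Mature sequences are shown for the neighbouring microRNAs that share a seed and for 3 with known roles in muscle or in the p53 response, with the seed (bases 2 to 8) in capitals (RefSeq, GRCm38.p6).
miR-193a-3p: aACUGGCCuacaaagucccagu
miR-193b-3p: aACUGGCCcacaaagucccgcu
miR-17-5p: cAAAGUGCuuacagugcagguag
miR-20a-5p: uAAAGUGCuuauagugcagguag
miR-19a-3p: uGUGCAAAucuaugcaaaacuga
miR-19b-3p: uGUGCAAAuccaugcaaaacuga
miR-34a-5p: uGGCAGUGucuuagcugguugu
miR-206-3p: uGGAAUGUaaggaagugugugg
miR-133b-3p: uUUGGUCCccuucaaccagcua

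The Mir193a and Mir193b genes lie on chromosomes 11 and 16, and each had its own member, 514 bp before Mir193a (chr11:79710943-79711454) and 1572 bp before Mir193b (chr16:13447721-13447950). Their -3p arms share the seed ACUGGCC. The first stood at the 55.5, 63.7, 18.97, 50.2 and 29.1 percentile and the second at 82.3, 89.9, 56.5, 50.3 and 65.1, so the member at Mir193b ranked higher in all 5 lists. Ahead of the miR-17 to miR-92 cluster on chromosome 14, whose products drive proliferation, a member at chr14:115040698-115041123 ended 2547 bp before Mir17, at the 57.8, 88.9, 83.7, 71.1 and 69.3 percentile. In that cluster miR-17-5p and miR-20a-5p share the seed AAAGUGC, and miR-19a-3p and miR-19b-3p share GUGCAAA. The member 1614 bp beyond Mir34a, a p53 target, stood at 84.5, 92.0, 89.2, 91.4 and 49.8, with HG3 the lowest. The muscle microRNA genes Mir206 and Mir133b shared a member inside Lincmd1, a lncRNA of muscle differentiation, at chr1:20678045-20678310, which stood at 72.3, 86.3, 63.7, 68.3 and 80.8. No expression of these RNAs was measured.

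The member that ranked first, chr1:24612551-24613179, lay 24.6 kb from Col19a1 and stood at the 100 percentile of all 5 lists, with an authors' fold enrichment of 28.3, 26.4, 23.9, 25.8 and 27.1. It overlapped the pseudogene Gm10222, and close beyond its end lies the pseudogene Gm10925, whose synonyms include mt-Atp6, the mitochondrial gene of an ATP synthase subunit. On the mitochondrial chromosome each of the 6 lists held 7 to 14 peaks, and the longest stretch without one, 4740 to 6541 bp, spanned ATP6 itself (7927 to 8607). The part of mitochondrial sequence in this member's rank was not tested. Members were ranked by the lowest of their 5 percentiles, and the next ranks belonged to chr2:98666554-98667324 (between Lrrc4c and Iftap, 1035 kb from the former), chr3:5860516-5860809 (282 kb from Pex2) and chr9:35305192-35305577 (29.2 kb from Rpusd4), none below the 99.9 percentile in any list. The other members among the 10 highest, besides the pair at lncRNA starts, were chr14:19417239-19417607, chr15:68363097-68363681 (104 kb from Zfat), chr15:32778626-32779007 (82.3 kb from Sema5a, a semaphorin) and chr12:3109880-3110093, none below 98.3. As background, the places on mm10 of the members named here on chromosomes 1, 2, 12 and 14 are known to attract reads in many sequencing data sets. No list of such places was used here, so whether the other members named here also lie in such places was not checked. All members were kept, and the part of such places in their rank was not tested.

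NG2, whose 66 peaks had no part in the choice, had 9 peaks far from genes, and all 9 lay in members. This was not particular to far regions. Of its other autosomal peaks, 35 of 35 at gene ends, 7 of 7 inside genes and 1 of 1 near genes also lay in shared regions. Of the 9 members they fell in, 6 were among the 10 highest ranked, including the 4 named above as lying in places known to attract reads. The others were not checked against a list of such places. As a share of shared regions, those with an NG2 peak made up 0.553% of members (95% Wilson interval 0.291 to 1.05), 0.516% of regions at gene ends (0.371 to 0.717), 0.227% inside genes (0.110 to 0.469) and 0.154% near genes (0.0272 to 0.868).

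Members also came in runs. Within 20 kb of each other lay 335 members (20.6%), in 147 clusters, of which 24 held 3 or more. The 4 clusters of 5 or more were 9 members at chr9:3000035-3036124, ahead of the first gene of the chromosome, 6 in 5.57 kb at chr17:39843206-39848778, 6 in 3.18 kb at chr14:19415712-19418893, and 5 in 5.09 kb at chr2:98662237-98667324. The last of the 6 on chromosome 17 overlapped Rn18s-rs5, a pseudogene of 18S ribosomal RNA. The median lowest percentile in these 4 clusters was 68.4, 88.0, 56.9 and 78.6, all above the 35.0 of all members. With these clusters and the members holding an NG2 peak left out, 1596 members remained. All 4 also lie in places on mm10 known to attract reads, whose part in these ranks was not tested.

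Compared with shared regions elsewhere, members were narrower than gene-end regions and ranked lower. Their median width was 272 bp (quartiles 225 and 343, range 109 to 1067), against 360 bp at gene ends (within 1 kb of either end of a protein-coding gene, 6785 regions), 279 bp inside genes (3077) and 273 bp at 1 to 10 kb from a gene (649). In 9.71% of members some list held more than 1 peak, against 22.9% at gene ends. Summits of the 5 lists lay within a median of 72 bp of each other, against 58 bp at gene ends. The median percentile of members was 62.4, 77.7, 59.3, 61.8 and 55.8, and of gene-end regions 78.6, 87.7, 78.3, 81.6 and 79.9. Members were lower in 5 of 5 libraries, by 17.8 percentage points on average (difference -17.8, SD 5.21, range -24.1 to -10.02, p = 0.0625, exact sign-flip permutation test, two-sided, the smallest p possible). Against shared regions inside genes the difference was -4.14 (SD 1.34, lower in 5 of 5, exact permutation p = 0.0625), and against those 1 to 10 kb from a gene -1.75 (SD 1.92, lower in 4 of 5, exact permutation p = 0.1875). The first 2 differences were larger than their spread over libraries and the last was not, and this exact test over 5 libraries cannot pass a threshold of 0.05. Of the 1000 highest ranked shared regions 27 were members and of the 1000 lowest ranked 233, yet of the 10 highest 4 were members. Those 4 include the members on chromosomes 1 and 2 in places known to attract reads, whose part in this was not tested. The members on chromosomes 3 and 9 among them were not checked against a list of such places.

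**Figure D1:**
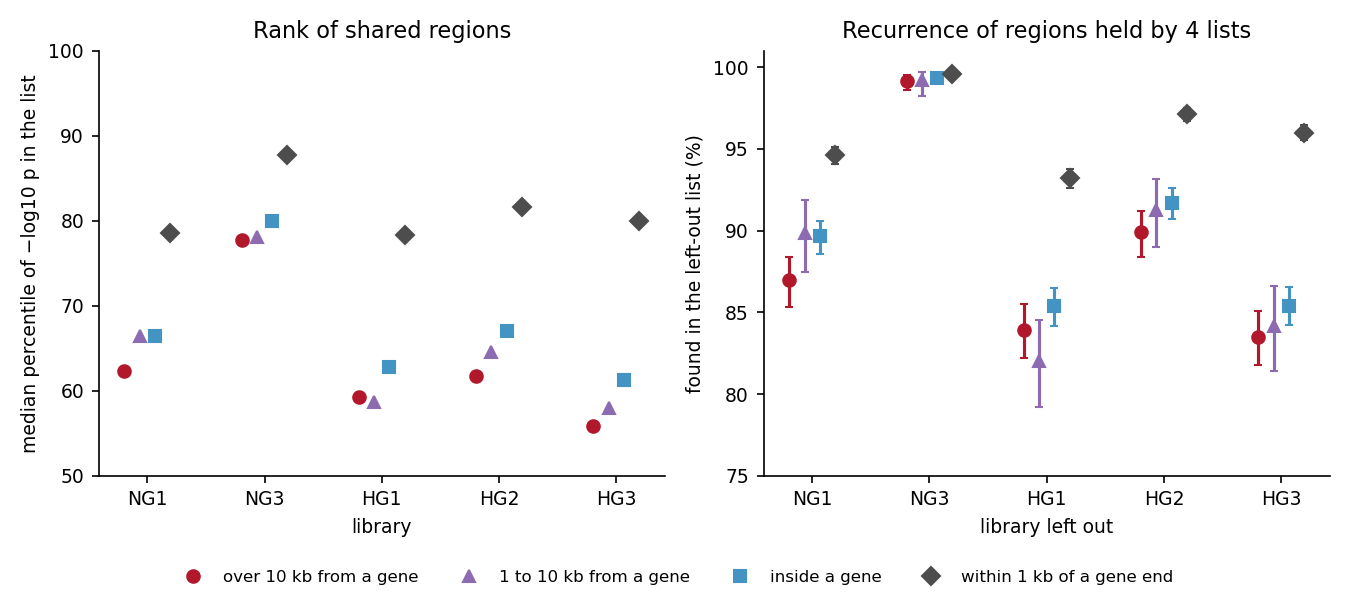
Left, the median percentile of −log10 p within each list for regions shared by all 5 lists, by class; right, the percent of regions held by the other 4 lists that also had a peak in the left-out list, with 95% Wilson intervals, in 5 libraries. Regions over 10 kb from a gene lie under those at gene ends in all 5 libraries on both axes, which start at 50 and at 75, by least in NG3 (77.7 against 87.7, and 99.1% against 99.6%).

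Recurrence was measured in a library that did not choose the regions. Of far regions held by the other 4 lists, 87.0% had a peak in NG1 (1627 of 1871), 99.1% in NG3 (1624 of 1638), 83.9% in HG1 (1623 of 1934), 89.9% in HG2 (1626 of 1809) and 83.5% in HG3 (1627 of 1949). At gene ends the shares were 94.6%, 99.6%, 93.2%, 97.1% and 96.0%. The share was high in every library and lower far from genes than at gene ends in 5 of 5, by 7.43 percentage points on average (difference -7.43, SD 4.43, range -12.5 to -0.428, p = 0.0625, exact sign-flip permutation test, two-sided). Among regions below the median strength the difference was -5.33 (exact permutation p = 0.0625), and among those above it -1.09 (exact permutation p = 0.125). Against regions inside genes it was -1.62 (SD 0.907, lower in 5 of 5, exact permutation p = 0.0625), and against those 1 to 10 kb away -0.641 (SD 1.77, lower in 4 of 5, exact permutation p = 0.4375), within the spread between libraries. NG3, the longest list, held nearly all regions of every class.

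Of all 11896 far regions, 13.7% were members (95% Wilson interval 13.1 to 14.3) and 48.7% stood in a single list. All 5 lists shared 48.2% of gene-end regions, 17.0% of those inside genes and 15.4% of those 1 to 10 kb away. The median distance of a member to the nearest protein-coding gene was 42.6 kb (quartiles 21.3 and 104), against 50.0 kb for far regions not in all lists. The share of far regions that were members was 15.2% at 10 to 25 kb, 14.8% at 25 to 50 kb, 13.3% at 50 to 100 kb, 12.3% at 100 to 250 kb, 11.6% at 250 to 500 kb and 9.43% over 500 kb. It was lower in each wider class of distance. The percentiles did not follow distance in 1 direction: between the nearest and the farthest class the median went from 64.3 to 57.2 in NG1 and from 55.9 to 72.5 in HG1. The farthest class holds 41 members, including the 5 of the chromosome 2 cluster.

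**Figure D2:**
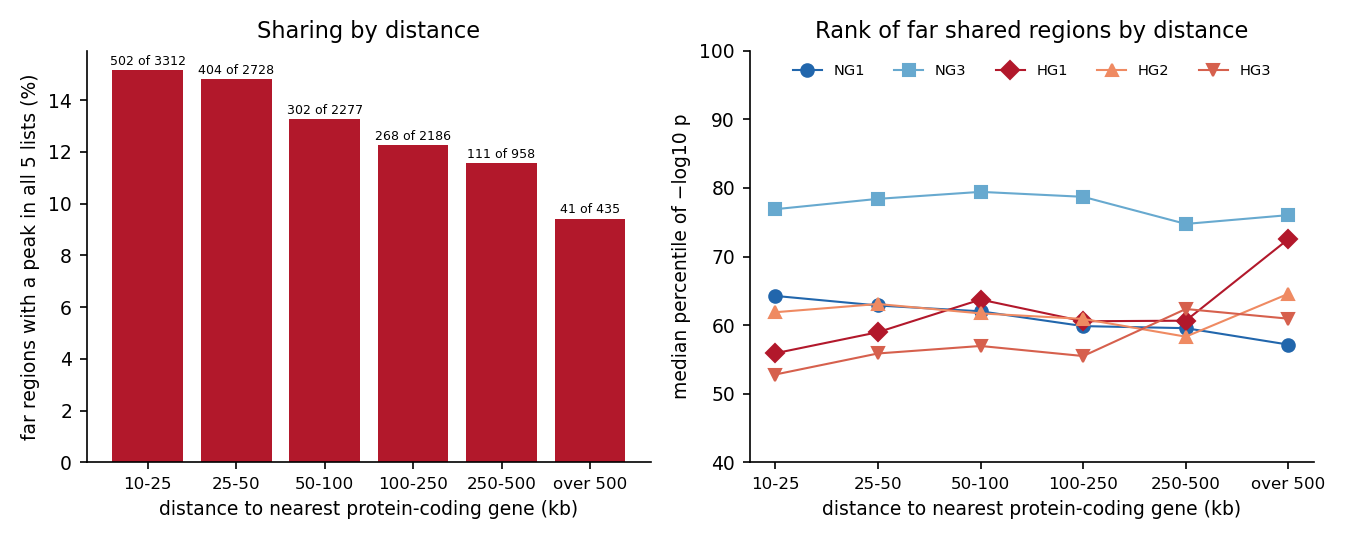
Left, bars give the percent of far regions with a peak in all 5 lists by distance to the nearest protein-coding gene in kb, with members of all regions above each bar; right, the median percentile of −log10 p of members in each of the 5 libraries (lines join the same library). The bars go from 15.2% down to 9.43%, while the medians of NG3 lie above the other 4 libraries in every class.

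The member farthest from a gene, chr8:6813918-6814102, lay 1709 kb from Slc10a2 in the gap before Efnb2, which encodes an ephrin ligand, and stood at the 19.3, 46.9, 32.1, 54.8 and 37.4 percentile. The next 4 lay in the gaps between Dsel and Cntnap5a (1645 kb), Zeb2 and Acvr2a (1445 kb), Epha7 and Map3k7 (1353 kb) and Slitrk5 and Gpc5 (1316 kb). The one by Epha7, an ephrin receptor, was the highest of the 5 in its weakest list, at 82.1, 87.4, 81.2, 83.6 and 77.5. Just inside the limit were members 10.006 kb from Rnf222, 10.019 kb from Cdh17 and 10.039 kb from Vps26c, with lowest percentiles of 11.5, 0.737 and 61.3. Just outside it were shared regions 9.987 kb from Btg1, 9.966 kb from Ackr3 and 9.942 kb from Tmem37, with lowest percentiles of 0.887, 9.12 and 4.74. The weakest members lay by Pcdh1, Rusf1, Gas1, Ahctf1 and Dusp6, each at the 0.0474 to 0.289 percentile in 1 list. The member by Pcdh1 stood at 0.0474 in NG1 and at 60.3 to 72.9 in the other 4 lists. Where the strand of the nearest gene was known (1233 members), 52.5% of members lay upstream of it (49.7 to 55.2), against 54.8% of far regions not in all lists.

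The 8321 gaps between genes with sequence over 10 kb from a gene held 1209.7 Mb of such sequence, 1.33 members per Mb. A member lay in 1133 of these gaps (13.6%), exactly 1 in 831 of them, and 5 or more in 18. Density ran from 0.580 per Mb on chromosome 14 and 0.614 on chromosome 12 to 1.98 on chromosome 11 and 2.12 on chromosome 15. On the X chromosome, which the choice left out, 16 of 181 shared regions lay over 10 kb from a gene (8.84%).

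Genes that bordered the most members included several regulators of transcription. Irf2bp2, a transcriptional corepressor, had 9 members in its 2 gaps, and Hes1, the repressor through which Notch receptors act, had 8. The single gap between Mn1, a transcriptional coregulator, and Cryba4, a lens crystallin, held 8. Myc had 7, as had Klf10, a zinc finger factor induced early by TGF-beta, and its neighbour Azin1, a regulator of polyamine synthesis, with 5 members in the gap they share. A bordering gene need not be the nearest one. Irf2bp2 was the nearest gene of 4 of its 9 members and Klf10 of 2 of its 7, while Myc was the nearest gene of all 7. Hs6st1, a heparan sulfate sulfotransferase, Klf6, Tgfb2, Tle3, a corepressor of the Groucho family, Gas1, a Hedgehog coreceptor, and Gata6 had 6 each. Esp38 and Lrrc4c also had 6, through the clusters on chromosomes 17 and 2. Per Mb of far sequence in their gaps, these genes ran from 1.04 members at Lrrc4c and 2.49 at Myc to 33.1 at Klf10, against 1.33 over all gaps. The genes were picked by their number of members, so these densities are descriptions. The share of transcription regulators among all genes is not given here.

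**Figure D3:**
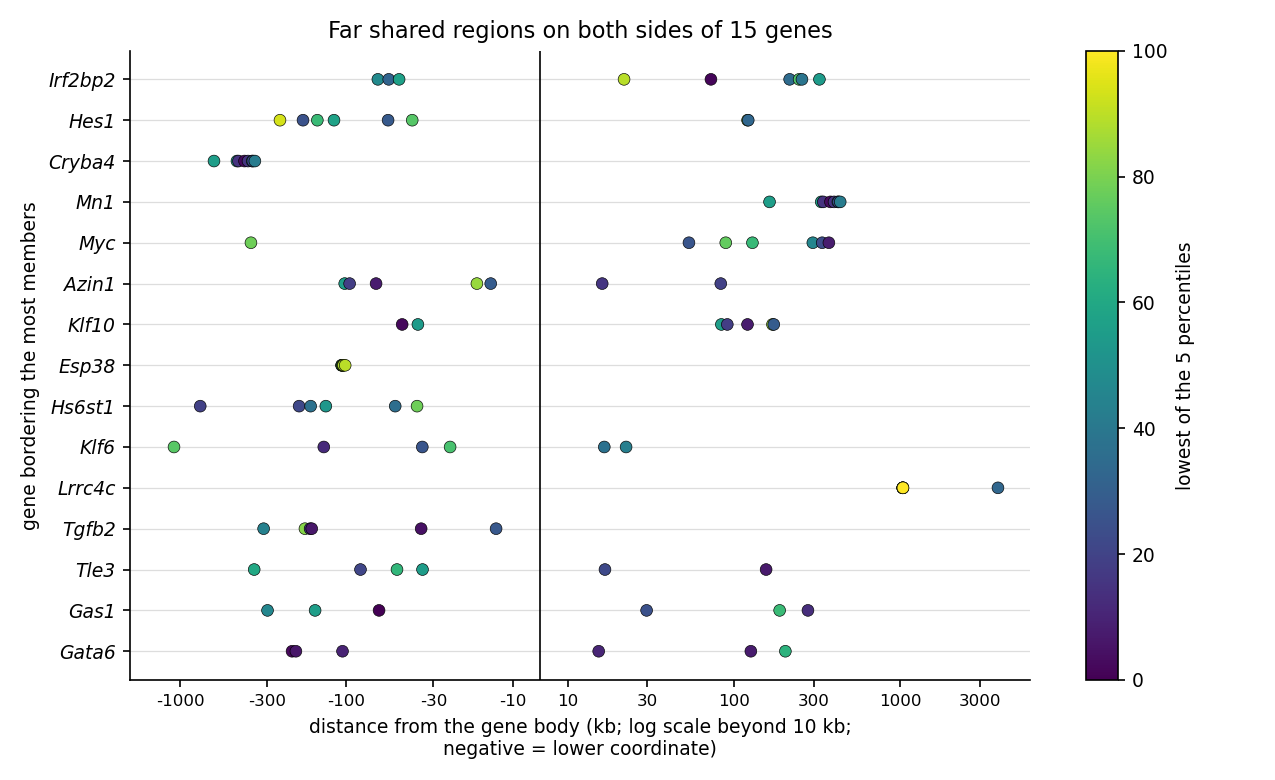
Members in the gaps on either side of the 15 genes that bordered most of them, by distance from the gene body in kb (log scale beyond 10 kb, negative towards lower coordinates), coloured by the lowest of the 5 percentiles. Irf2bp2 had 9 members on both sides, while all 8 of Mn1 lay on its higher side, in the gap to Cryba4, and the 5 close together 1031 to 1035 kb from Lrrc4c were the chromosome 2 cluster.

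Before and beyond a gene are used here for lower and higher coordinates, whatever the strand of the gene. Around Irf2bp2, the member 21.7 kb beyond the gene (chr8:126615710-126616116) stood at 93.6, 97.9, 93.0, 95.9 and 89.2, the highest of the 9 in 4 of the 5 lists. The member at 72.4 kb was the weakest, at 3.61, 62.3, 2.48, 1.43 and 53.5, so that 3 of its 5 percentiles lay near the bottom of their lists. Around Hes1, the member 251 kb before the gene (chr16:29814085-29814330) was the strongest, at 96.0, 93.6, 94.6, 97.5 and 96.2. That member lay inside the lncRNA Gm46567 and nearer Opa1, 150957 bp away. Hes1 was the nearest gene of 5 of its 8 members. A member 40.2 kb before Hes1 stood at 90.5, 92.5, 73.6, 77.1 and 84.5. In the gap after Mn1 the 8 members spread over 163 to 434 kb, and the lowest of each one's percentiles ran from 2.72 to 60.3. At Myc, 6 of 7 members lay on the side of Pvt1, 53.4 to 371 kb away, and 1 on the other side, 375 kb away (chr15:61609634-61610010), at 88.2, 88.5, 87.6, 78.1 and 83.5. Its lowest percentile was above the lowest of the other 6.

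In TGF-beta and BMP signalling, Tgfb2, a ligand that drives cushion transformation, had 6 members, all on 1 side, 12.6 to 315 kb from the gene. The strongest, at chr1:186444770-186445123 and 178 kb away, stood at 87.0, 91.5, 89.8, 81.8 and 91.0, and the nearest at 67.3, 74.4, 52.6, 37.3 and 27.0. Smad6, an inhibitor of BMP signalling, had 5, of which 4 lay in the gap it shares with Smad3, a transducer of TGF-beta. The one 10.97 kb from Smad6 (chr9:63941789-63942105) stood at 97.8, 94.9, 89.2, 92.7 and 90.8, whereas the 2 farthest from Smad6 in that gap reached no more than 71.8 in any list. Among transcription factors, the members of Gata6 were weak. Of its 6, only the one 203 kb beyond it stood at a lowest percentile over 10.4, at 64.3, 84.9, 85.5, 83.3 and 89.3, and the one 15.3 kb beyond it stood at 15.9, 20.7, 10.4, 26.9 and 19.1. Zeb1, a factor of mesenchymal transition, had 4 members (8.59 per Mb of far sequence in its gaps) and was the nearest gene of 1 of them. Mef2c had 3 (1.35 per Mb), close to the 1.33 of all gaps. Tbx18, a factor of the epicardium, had 4 and was the nearest gene of 1 of them. That one, 84.0 kb before Tbx18 (chr9:87618255-87618803), stood at 97.1, 95.9, 92.0, 86.0 and 88.8. Of the 5 by Klf4, the one at 119 kb (chr4:55651079-55651437) stood at 88.5, 82.3, 87.1, 93.7 and 85.0.

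Among immediate early genes, which respond fast to growth signals, the member 12.5 kb before Ier5 (chr1:155083263-155083829) stood at 95.8, 97.8, 97.9, 98.2 and 98.8, the highest of its 3. Dusp5 and Dusp6 encode phosphatases that limit ERK signalling, and each had 4 members. The strongest, 21.3 kb before Dusp5 (chr19:53507350-53507845), stood at 95.7, 93.7, 90.8, 86.3 and 90.1. Fos, an AP-1 subunit, had 3, of which the one 18.3 kb before it stood at 64.1, 80.4, 78.9, 80.6 and 56.0, while another beyond it stood at 5.29 in HG1. Among YAP targets and partners, a member 46.1 kb from Amotl2 stood at 95.6, 94.4, 83.6, 82.7 and 95.1, 1 by Tead4 at 85.3, 94.97, 84.8, 94.2 and 91.9, and the strongest of 3 by Ccn1, a matricellular protein, at 80.5, 86.6, 67.2, 76.5 and 73.4. Among matrix and adhesion genes, Col5a1, a fibrillar collagen, had 4 members, all 27.5 to 100 kb from the gene on 1 side, and the nearest stood at 78.2, 90.1, 62.2, 84.0 and 73.6. Fn1, fibronectin, had 4 at 212 to 471 kb and was the nearest gene of 1 of them, the others lying nearer Mreg. Thy1, a fibroblast surface protein whose gene was itself not open in all 5 libraries, had 3, 1 of them at 90.3, 90.6, 79.6, 90.7 and 87.2. The 5 members between Cdh11, a mesenchymal cadherin, and Cdh5, the endothelial cadherin, all lay nearer Cdh5, 72.7 to 360 kb away, so the same 5 count for both genes. Per Mb of far sequence this was 1.11 for Cdh11, under the 1.33 of all gaps, and 3.84 for Cdh5.

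Counted by list, 29 of 64 genes of cushion and valve development bordered a gap with a member, as did 19 of 39 mesenchymal and fibroblast markers, 18 of 47 mesodermal transcription factors, 10 of 26 AP-1 and immediate early genes and 7 of 22 Hippo and YAP targets. Of all protein-coding genes 10.2% did. Gaps beside these lists are wide: the median gene of cushion development borders 239 kb of far sequence and the median gene of all 7.30 kb. Per Mb of that sequence, AP-1 and immediate early genes had 6.35 members (34 in 5.35 Mb), YAP targets 2.83, mesenchymal markers 2.39, cushion genes 1.89 (62 in 32.8 Mb) and mesodermal factors 1.299, against 1.33 in all gaps. So the share of genes was above that of all genes in each of these 5 lists, and the density was above that of all gaps in 4, with mesodermal factors close to it. This was not particular to them. Of the remaining lists, only cardiomyocyte markers had a lower share than all genes, and only neural markers a lower density than all gaps. Among genes bordering far sequence, the share with a member was 52.8% for mesenchymal markers, 50.0% for endothelial markers and 49.2% for cushion genes. Over all such genes it was 17.6%. Of endothelial markers 7 of 24 bordered a gap with a member (29.2%, 3.84 per Mb) and of epithelial and mesothelial markers 5 of 20 (25.0%, 3.73). Of neural markers 8 of 29 did (27.6%, 0.936), of blood cell markers 3 of 23 (13.0%, 2.104) and of cardiomyocyte markers 2 of 24 (8.33%, 1.41). The densities of the endothelial and epithelial lists rest on 12 and 5 members, and 5 of the endothelial 12 are those between Cdh11 and Cdh5. Glycolysis genes had 5 of 36 (13.9%, 2.09 per Mb) and cytosolic ribosomal proteins 5 of 48 (10.4%, 1.47). These are counts without a test, a gene and its neighbour share a gap, and the lists were chosen with results of these data known.

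**Figure D4:**
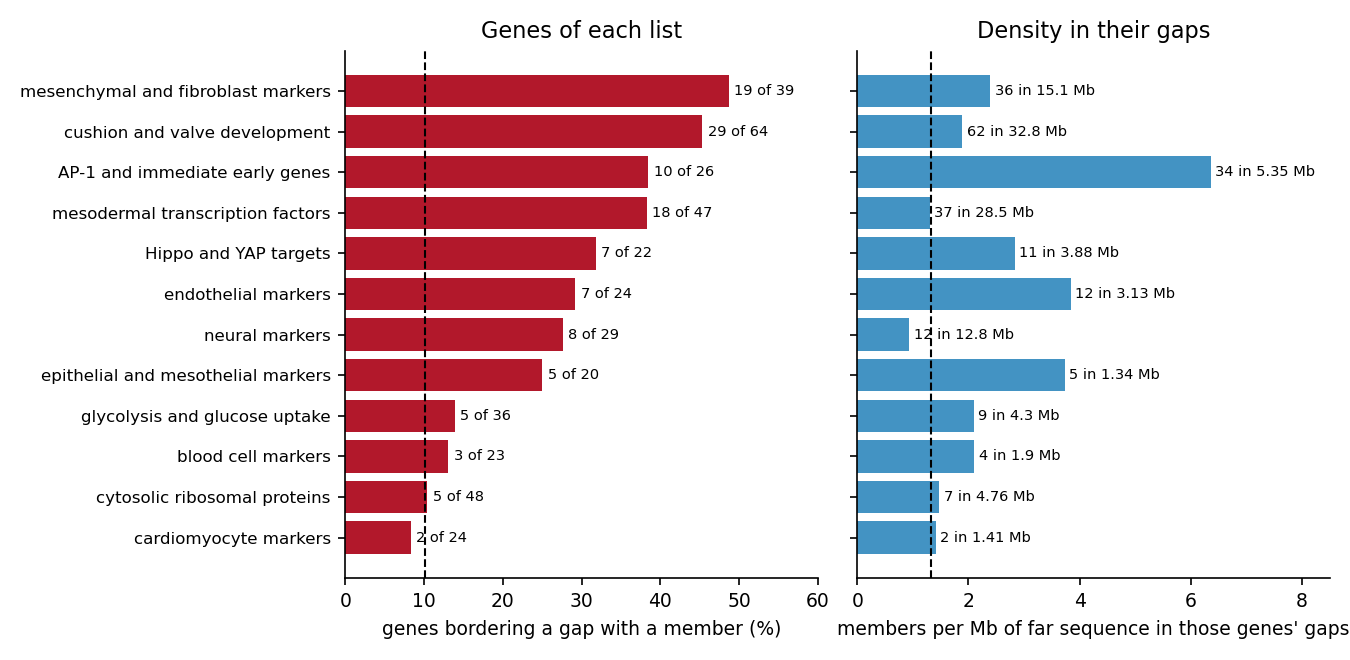
Left, the percent of each list's genes that border an intergenic gap holding a member; right, members per Mb of sequence over 10 kb from a gene in those genes' gaps, with counts beside the bars and dashed lines for all protein-coding genes (10.2% and 1.33 per Mb). Mesenchymal and cushion lists lead on the left, and AP-1 and immediate early genes lead on the right at 6.35 per Mb.

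Between glucose conditions, the shares of peaks far from genes overlapped when lists were taken as deposited. Far peaks made up 18.5% of autosomal peaks in NG1, 23.4% in NG3, 19.95% in HG1, 19.02% in HG2 and 17.8% in HG3, and 17.3% in NG2 (9 of 52, 95% Wilson interval 9.38 to 29.7). NG3 was the highest. High minus normal glucose was -2.03 percentage points (18.9% ± 1.10, SD, n = 3, against 20.9% ± 3.48, SD, n = 2, p = 0.6, exact permutation test, two-sided, smallest possible p 0.2). Without NG3 the sign turned, to 0.430, without NG1 the difference was -4.50, and with lists of equal length the difference was -0.316 (exact permutation p = 1). With peaks at a −log10 q of at least 5 it was -3.83 (exact permutation p = 0.2, the smallest possible), with the groups apart. With NG2 included it was -0.821 (exact permutation p = 0.9).

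To compare members between lists of different length, each was ranked among the same 12139 shared regions. The median rank of members was the 36.3 percentile in NG1 and 35.6 in NG3, and 34.9 in HG1, 31.7 in HG2 and 30.4 in HG3. All 3 high-glucose libraries lay under both normal-glucose ones (difference of means -3.63 points, 32.3 ± 2.31, SD, n = 3, against 35.9 ± 0.539, SD, n = 2, p = 0.2, exact permutation test, two-sided, the smallest p that 2 against 3 allows). For members over 50 kb from a gene the difference was -1.62 (exact permutation p = 0.6). With lists of equal length it was -4.10 (exact permutation p = 0.4), and the groups then overlapped. Shared regions 1 to 10 kb from a gene had medians of 41.7, 36.1, 34.0, 35.5 and 32.8, so high glucose lay under normal glucose there too. Shared regions inside genes had medians of 41.7, 40.4, 38.8, 38.9 and 36.6 and gene-end regions 59.4, 60.9, 61.7, 63.3 and 63.7, so the order of libraries was opposite at gene ends. Ranks within 1 set sum to a constant, so classes cannot all move one way, and an absolute change was not measured.

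Of the members, 230 (14.1%) ranked higher in both normal-glucose libraries than in all 3 high-glucose ones, against 11.5% of all shared regions, and 135 (8.29%) ranked higher in all 3 high-glucose libraries, against 11.9%. Over single members the median difference was -2.80 points (quartiles -12.5 and 6.72), against 0.280 over all shared regions. The 3 widest differences in each direction are given as descriptions, having been picked by size. Higher in high glucose was a member 45.0 kb from Ezr, which encodes the membrane linker ezrin (chr17:6827759-6828390), with ranks of 26.9, 34.3, 82.8, 77.0 and 63.2. A member 77.9 kb from Mef2c (chr13:83744970-83745229), a factor of heart and muscle development, ranked 14.3, 54.2, 74.8, 69.1 and 81.2, and 1 by Tiam2, an activator of Rac, 14.3, 42.4, 71.4, 69.0 and 66.8. Higher in normal glucose were members 64.2 kb from Ipo5, an importin (79.8, 48.0, 8.94, 27.7 and 1.14), 23.6 kb from Slc6a6, the taurine transporter (85.6, 81.4, 46.6, 16.3 and 33.7), and 27.4 kb from Usp3, a deubiquitinase (83.1, 24.4, 3.42, 15.6 and 0.0577). The 2 normal-glucose ranks lay far apart at Mef2c, Tiam2, Ipo5 and Usp3 and closer at Ezr and Slc6a6.

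**Figure D5:**
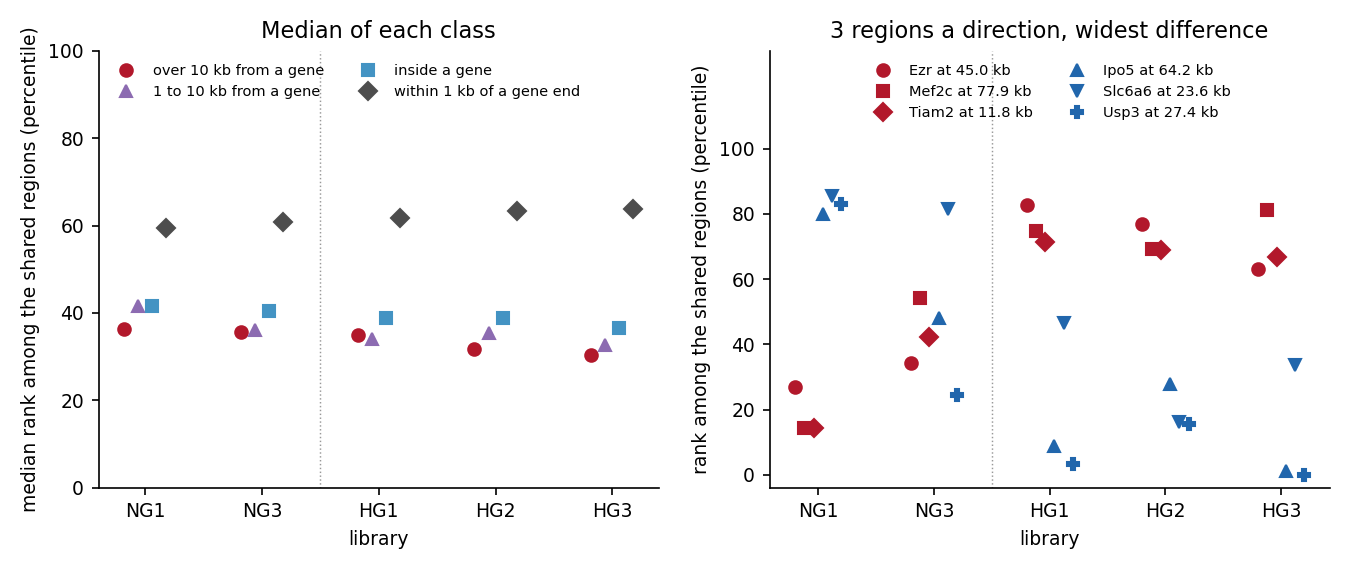
Left, the median rank (percentile among the 12139 shared regions) of each class in the 5 libraries; right, the ranks of the 3 members with the widest difference in each direction, named by the nearest gene and its distance (red, higher in high glucose; blue, higher in normal glucose). Regions over 10 kb from a gene have medians of 36.3 and 35.6 in NG1 and NG3 and of 34.9, 31.7 and 30.4 in HG1, HG2 and HG3.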

How the data were processed

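ATAC-seq peak lists of 6 libraries, 3 per glucose concentration, were analysed, grouped by the labels. Per the submitters' processing notes, which give no roles or settings, reads were processed on mm10, and the tools named are Bowtie 1.0.0, MACS2 2.1.0, Picard 1.90, SAMtools 0.1.19, cutadapt 1.0, FastQC, edgeR and DiffBind 1.12.3. Libraries were sequenced as 50 bp paired-end reads, per the labels. Read shifting for the transposase offset and the treatment of duplicate, mitochondrial and repeated sequence are not given in the sources used here.

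Each library has 1 deposited list with position, summit offset, score, fold (a ratio), −log10 p-value and −log10 q-value per peak, computed by the authors. All peaks listed pass a −log10 q of about 1.3. Read counts were not analysed here, so depth is unknown. A longer list reaches weaker sites, so its length affects sharing and percentiles.

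The 20661 autosomal protein-coding genes came from RefSeq on GRCm38.p6, whose coordinates are those of mm10. Peaks were merged over 5 lists where they overlapped by at least 1 bp. NG2, with fewer than 1000 peaks, stayed out. A region's percentile is that of its strongest peak by the authors' −log10 p within 1 list. Recurrence was taken in each library for regions present in the other 4. A gap is the stretch between neighbouring protein-coding genes, and a gene borders a member where it flanks the member's gap. Libraries were compared by two-sided exact permutation tests, with sign flips for paired values. Merging and distances were tested on simulated intervals against a direct count.

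The members and the 12 gene lists (407 genes) were chosen with earlier results of these data known. Text names the 10 highest ranked members, the 5 farthest, the 5 weakest, 3 on either side of the limit, up to 10 with an NG2 peak, the 15 genes bordering most members, and list genes with most members, of which some are given by count only and some are not reported here. Gene models without a proper symbol were passed over when genes were named by count. Alternatives were other distances, thresholds, list lengths, rankings and each library left out. The planned motif search in all members needs a genome and was not run. Promoter windows and microRNAs came from RefSeq. Scripts ran on Python 3.11.15 (matplotlib 3.10.9, SciPy 1.17.1, pandas 2.3.3, numpy 2.4.6).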

Additional observations from a re-analysis of the deposited data

Results flagged for a closer look

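Normal-glucose replicate 2, with a list of 66 peaks that stayed out of the choice of regions, had 9 peaks in far shared regions. Its list entered only the alternatives with all 6 libraries and the one without members that hold its peaks. These 9 peaks drew attention because they are a signal in data left out of the choice of regions. All 9 of its peaks far from genes lay there, and none lay in a far region outside the shared set. The same held in every class: its 35 peaks at gene ends, 7 inside genes and 1 near genes also all lay in shared regions. Of the 9 regions, 6 were among the 10 highest ranked in the other 5 libraries, some of them in places on mm10 known to attract reads, and 3 were not: chr13:48545658-48546186 between Zfp169 and Ptpdc1, chr4:64497890-64498057 between Tnc and Pappa, and chr14:19416971-19417173, in a cluster of 6.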

How the results depend on the processing

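The number of far shared regions, 1628, was 722 at a distance over 50 kb, 420 over 100 kb, 798 at a −log10 q of at least 5, 800 with the distance taken to every annotated gene, non-coding ones included, and 9 with all 6 libraries. Each of these alternatives is stricter by construction, the last through the short list of NG2 alone. Leaving out 1 library gave 1638 to 1949. The difference in the share of far peaks, -2.03, turned to 0.430 without NG3. It was -4.50 without NG1 and -3.83 at a −log10 q of at least 5 (exact permutation p = 0.2). The cause was not tested. Leaving out 1 library gave -19.8 to -18.7 for the percentile against gene ends, -10.3 to -9.30 for recurrence and -4.12 to -2.48 for the rank between glucose conditions. With same-numbered libraries as pairs (a replicate block of numbers 1 and 3), the share of far peaks differed by -2.09 (exact permutation p = 1) and the rank by -3.33 (exact permutation p = 0.5), and the labels do not say that the numbers pair the libraries. With lists of equal length the rank difference was -4.10 (exact permutation p = 0.4), and the groups overlapped. The other alternatives kept each direction, and no exact permutation p could pass 0.05 under any of them. With the nearest gene only, 80 list genes in place of 118 had a member. Without the members in clusters of 5 or more or with an NG2 peak, chosen after seeing the data, the percentile difference was -18.3 and the rank difference -3.64. The motif search in all members was not run, for want of a genome sequence here. The lists hold no depth, so a peak missing from a list was not shown to be closed chromatin.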
